A study of Rattus norvegicus with 105 samples.

Results

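The comparison described here was between frontal cortex from rats given clozapine at the level labelled high, on 8 arrays, and from rats given vehicle, on 9 arrays. Its members were chosen by the sample labels alone, 17 of the 105 arrays of the series. They belong to a neuroleptic experiment of 63 arrays, whose other groups were clozapine low (10 arrays), clozapine medium (9), and haloperidol low, medium and high (9 each). Total RNA of rat frontal cortex was hybridised to Affymetrix rat expression arrays, and the series describes the neuroleptic dosing as chronic. The labels give no amount of drug, number of days, strain, sex or age, and dose levels are words. Nor do they state whether arrays stem from different animals, and a p-value therefore refers to the spread of these samples, which may be technical in part. Replicate numbers were given in sample order and pair no arrays.

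Clozapine is an atypical antipsychotic that binds many receptors, among them serotonin, dopamine, muscarinic, histamine and adrenergic receptors. Haloperidol is a typical antipsychotic that blocks mainly dopamine receptors of the Drd2 kind. In frontal cortex, antipsychotics have been studied for their effects on activity-regulated genes such as Fos and Arc, on synaptic genes and on enzymes of lipid synthesis.

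Each value is a log2 intensity of a probe set, a group of short probes for a transcript or for several similar ones, after the arrays had been brought to a common distribution. A gene is represented by its brightest probe set unless another is named by its ID. A difference is the mean of the high clozapine arrays minus the mean of the vehicle arrays, in log2 units, with its standard error (SE). It was called a change at an adjusted p under 0.05 in limma, with Benjamini-Hochberg adjustment over 18625 probe sets. Where a difference is said to be on a number of arrays, these are the high clozapine arrays beyond the vehicle mean in its direction. Such arrays can still lie within the vehicle range. The median SE was 0.105, and over 10127 genes the median difference was -0.00016, with 49.9% of genes higher. No depth exists for arrays, and their number limits the precision.

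The samples held the transcripts that define cortex. Slc17a7, the vesicular glutamate transporter of cortical projection neurons, was at 14.97 ± 0.28 (SD, n = 8) with high clozapine and 14.86 ± 0.22 (SD, n = 9) with vehicle. Neurod6, a transcription factor of the same neurons, was at 13.69 ± 0.12 (SD, n = 8) and 13.69 ± 0.09 (SD, n = 9). Along the sample numbers in the titles the arrays jumped between 3 segments, which were set after the values were seen and held 77.3% of the first principal component, against 8.66% for the 7 groups. The segments held 2, 4 and 2 high clozapine arrays and 4, 2 and 3 vehicle arrays, so values within segments are given beside the main results. Among the clozapine low arrays, which entered the shared spread, arrays 9 and 10 stood apart in genes of red blood cells, and those results are given with and without both arrays.

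High clozapine differed from vehicle in 1 of the 18625 probe sets tested, or 0.00537%, and that probe set measured Ccn2. Ccn2 encodes connective tissue growth factor, a secreted protein of the extracellular matrix that is best known as a target of the YAP and TEAD regulators and of TGF-beta, and that in rodent cortex marks neurons of the deepest layer. At an unadjusted p under 0.05 the limma fit held 724 probe sets, 3.89% of those tested, of which 368 were higher (1.98%) and 356 lower (1.91%).

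**Figure D1:**
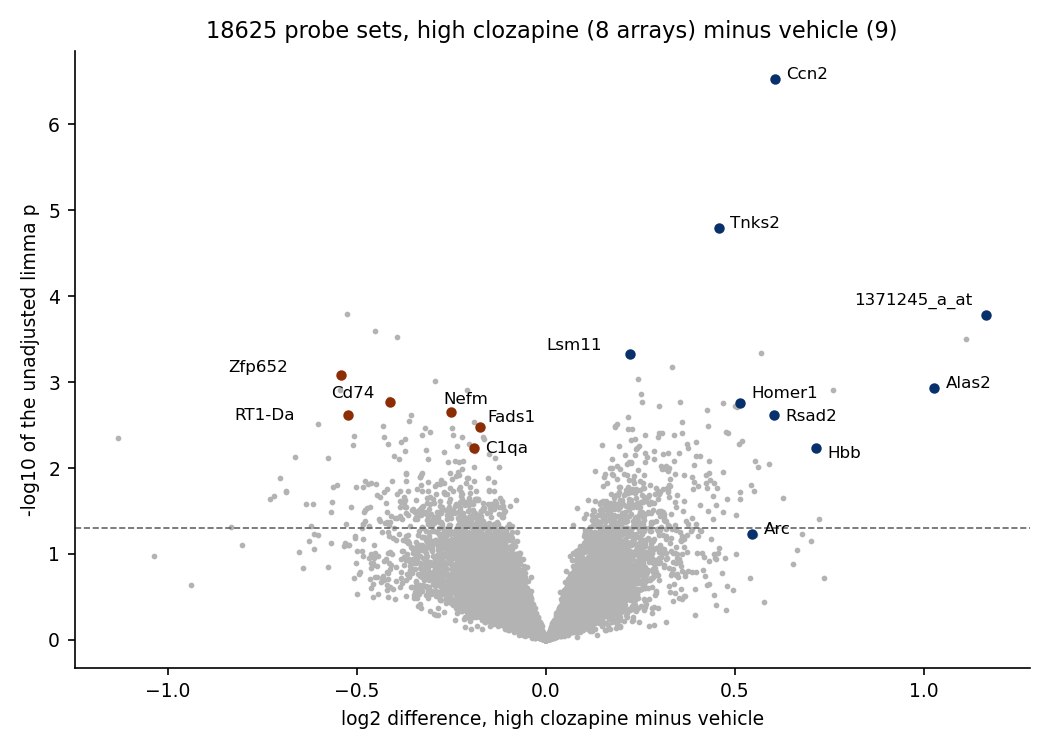
Log2 difference, high clozapine minus vehicle, on the horizontal axis against -log10 of the unadjusted limma p on the vertical axis, for the 18625 probe sets tested; the dashed line marks an unadjusted p of 0.05. Ccn2 stands alone at the top, with a difference of 0.60, and red cell genes reach the largest differences to the right without passing the adjusted threshold.

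The start of Ccn2 is shown because this gene carried the comparison and because TEAD factors bind the letters GGAATG. The window is chr1:22624565-22624864 on the minus strand of GRCr8, from RefSeq, and runs from 250 bases before the start to 50 bases after it. It is printed 5′ to 3′, and capitals mark each match to GGAATG.

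Ccn2: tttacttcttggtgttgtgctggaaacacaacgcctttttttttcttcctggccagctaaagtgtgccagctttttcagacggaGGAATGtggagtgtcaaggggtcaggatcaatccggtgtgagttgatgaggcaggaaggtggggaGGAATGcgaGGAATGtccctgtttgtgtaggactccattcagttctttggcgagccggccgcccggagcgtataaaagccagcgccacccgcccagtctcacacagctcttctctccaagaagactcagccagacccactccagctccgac

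A search for GGAATG on this strand, and for CATTCC as its form on the opposite strand, found 3 matches, all forward, beginning 166, 101 and 92 bases before the start. Of 33469 promoter windows of this length, 14.2% held at least 1 match and 0.0956%, or 32 windows, held at least 3. A match describes the letters and does not show that a factor binds there.

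Ccn2 rose with high clozapine. On the 8 high clozapine arrays its level was 12.20 at the lowest, 12.33 at the median and 12.71 at the highest. On the 9 vehicle arrays it was 11.62, 11.75 and 12.11. The groups did not overlap, and the highest vehicle array, replicate 2, lay 0.26 above the next one at 11.85. The mean was 12.39 ± 0.19 (SD, n = 8) with high clozapine and 11.79 ± 0.14 (SD, n = 9) with vehicle. The difference was 0.60 ± 0.10 (SE) or 1.52-fold, with a 95% interval from 0.40 to 0.81 (limma, adjusted p = 0.00547). The two-sided exact permutation p was 8.2e-05 over 24310 splits of the arrays. Within the 3 segments, set after the values were seen, the difference was 0.64, 0.61 and 0.65. With segments as a block it was 0.58 (limma, adjusted p = 0.00798). A planned split into 4 runs of sample numbers followed the order of groups in the titles. With these runs as a block the difference was 0.59 (limma, adjusted p = 0.00406). Non-overlapping groups were found for 2 probe sets in the higher direction, 0.0107% of those tested, and for 0 in the lower direction. The other was Kif7, a kinesin of the primary cilium that acts in hedgehog signalling.

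**Figure D2:**
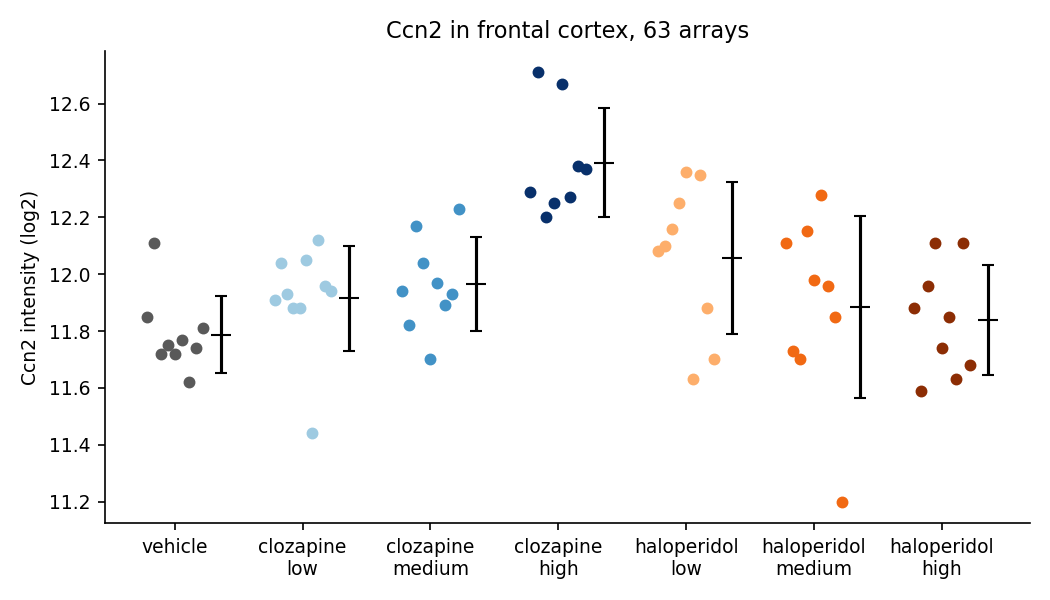
Log2 intensity of Ccn2 on each of the 63 arrays of the neuroleptic experiment, by group, with each group's mean and SD. The 8 high clozapine arrays lie between 12.20 and 12.71, above all 9 vehicle arrays, and the low and medium clozapine means lie between those of vehicle and high clozapine.

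The level of Ccn2 at high clozapine was also set against the neighbouring dose levels and the other drug, without the vehicle arrays. Low clozapine was at 11.91 ± 0.18 (SD, n = 10) and medium clozapine at 11.97 ± 0.17 (SD, n = 9), 0.13 and 0.18 above vehicle, neither past the threshold. The low clozapine arrays ran from 11.44 to 12.12 and lay below every high clozapine array, while the medium arrays ran from 11.70 to 12.23 and overlapped them at the top. High minus low clozapine was 0.48 ± 0.10 (SE; limma, adjusted p = 0.0691), in a comparison that called 0 probe sets and held 607 (3.26%) at an unadjusted p under 0.05. Ccn2 was called in it when 4 runs of sample numbers entered as a block (0.50, adjusted p = 0.0331) and when the brightest 40% of probe sets were kept (0.48, adjusted p = 0.0442). For high minus medium it was 0.43 ± 0.10 (SE; limma, unadjusted p = 0.00014, adjusted p = 1). High clozapine minus high haloperidol was 0.55 ± 0.10 (SE; limma, adjusted p = 0.0332). That was the single called probe set of 18625 (0.00537%) between the 2 drugs at their high levels. At an unadjusted p under 0.05 this contrast held 2232 of 18625 (12%), and 1879 (10.1%) with segments as a block (limma). Segment 3 held haloperidol high replicates 5 to 9 but only 2 high clozapine arrays. Haloperidol high replicate 8 had the lowest mean correlation with other arrays in the experiment (0.9496), and this contrast was not fitted without it. The part of the drugs in the 12% was not tested. The call of Ccn2 was lost with segments as a block (0.51, adjusted p = 0.0930). It was also lost when high clozapine replicate 5, 7 or 8 was left out, while 318 probe sets were called without replicate 2. The haloperidol groups were at 12.06 ± 0.27 (low), 11.88 ± 0.32 (medium) and 11.84 ± 0.19 (high; SD, n = 9 each). In the order of the 7 means high clozapine came first and haloperidol low second. The means from haloperidol low down to vehicle lay within 0.27 of each other, close to the SDs of the haloperidol groups.

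Genes that share a class with Ccn2 did not share its size of difference; the classes below were listed after values of these data were known. Medians near 0 give no direction here or further on, since 20 of 43 list medians changed sign under at least 1 alternative. Of the CCN family 2 members were tested, and the other, Ccn3, was at 14.51 ± 0.12 (SD, n = 8) against 14.38 ± 0.19 (SD, n = 9), a difference of 0.13 ± 0.09. Of 12 tested targets or partners of YAP and TEAD, Ccn2 included, 7 were higher, with a median of 0.030. Ajuba, a LIM-domain adaptor protein, was at 0.29 ± 0.14 (SE; limma, unadjusted p = 0.0413), the only other of them with an unadjusted p under 0.05, and F3, which encodes tissue factor, was at 0.18 ± 0.10. Tead1, a TEAD factor itself, was at -0.17 ± 0.09. Among 12 genes of TGF-beta signalling 7 were higher, with a median of 0.023 and 0 at an unadjusted p under 0.05 (limma), where all genes gave 1.77% higher and 1.95% lower. Of 10 tested markers of layer 6b and subplate neurons, Ccn2 among them, 6 were higher with a median of 0.048. Cplx3, a complexin of synaptic vesicle release, was at 0.07, Nxph3, a neurexophilin, at 0.03 and Nr4a2, a nuclear receptor, at 0.07, each under its SE, and Moxd1 was at -0.12 ± 0.08. In bulk tissue fewer cells of a type and less RNA per cell cannot be told apart.

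The 3 largest differences in the higher direction belonged to genes of red blood cells, which did not pass the adjusted threshold in the fit of all 63 arrays. Alas2, the first enzyme of haem synthesis in red cell precursors, was on the high clozapine arrays at 9.92 at the lowest, 10.70 at the median and 11.61 at the highest. On the vehicle arrays it was at 9.26, 9.84 and 10.08. Of the 8 high clozapine arrays 7 lay above every vehicle array, and replicate 7, at 9.92, was within the vehicle range. The difference was 1.03 ± 0.30 (SE), or 2.04-fold (limma, adjusted p = 0.987; two-sided exact permutation p = 0.00012). Within the 3 segments it was 0.88, 1.16 and 0.92. Hbb, the beta chain of haemoglobin, was at 15.19, 15.97 and 16.52 with high clozapine and 14.96, 15.22 and 15.55 with vehicle. Its difference was 0.72 ± 0.25 (SE; limma, adjusted p = 0.987; exact permutation p = 0.00099), again with 7 of 8 arrays above every vehicle array and replicate 7 within the vehicle range. Hba-a3, an alpha chain gene, was at 0.63 ± 0.27 with overlapping groups (exact permutation p = 0.0289).

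All 5 tested probe sets that the annotation pairs with several globin genes, given by their IDs and added after values were seen, were higher as well. Such probe sets can read the same transcripts, so they do not count as separate genes. Probe set 1371245_a_at was at 1.17 ± 0.29, 1371102_x_at at 1.11 ± 0.29 and 1388608_x_at at 0.76 ± 0.22 (SE; exact permutation p = 0.00016, 0.00012 and 0.00049). On each of these, 7 of 8 high clozapine arrays lay above every vehicle array. The other two, 1370239_at and 1370240_x_at, were at 0.51 ± 0.22 and 0.54 ± 0.22 (SE; exact permutation p = 0.00082 and 0.00099), also with 7 of 8 arrays above every vehicle array.

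Against vehicle, some of these genes passed the threshold in 1 alternative fit. Outside the comparison, clozapine low arrays 9 and 10 held Alas2 at 7.27 and 7.20 and Hbb at 13.11 and 12.92, below all of the 17 arrays. With both left out, an alternative added after these values were seen, 5 probe sets were called in the limma fit. They were Ccn2 (0.61, adjusted p = 0.00283), Alas2 (1.03 ± 0.21, adjusted p = 0.0301), 1371102_x_at (1.11, adjusted p = 0.00283), 1371245_a_at (1.17, adjusted p = 0.00283) and 1388608_x_at (0.76, adjusted p = 0.0140), while Hbb was not called (0.71, adjusted p = 0.117). A fit of the 17 arrays alone, which also leaves out arrays 9 and 10, called only Ccn2. In it Alas2 was at 1.03 ± 0.19 (limma, adjusted p = 0.169), and 1371102_x_at and 1371245_a_at had an adjusted p of 0.154. Against low clozapine, Alas2 stood 1.37 ± 0.29 higher at the high level with all arrays (adjusted p = 0.0691) and 0.82 ± 0.22 higher without those 2 (adjusted p = 0.805). With arrays 9 and 10 in the fit, Alas2 was called in that contrast with 4 runs of sample numbers as a block (1.41, limma, adjusted p = 0.0331). It was also called without high clozapine replicate 7 (1.495, limma, adjusted p = 0.0247). Hba-a3 was called with 40% of probe sets kept (1.24, limma, adjusted p = 0.0442), and globin probe sets were called under each of these settings. Low clozapine minus vehicle was -0.34 for Alas2 with all arrays and 0.21 without arrays 9 and 10. High minus medium clozapine was 0.72 ± 0.30 (SE; limma, unadjusted p = 0.0195, adjusted p = 1).

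Of the 11 blood markers listed 6 were on the arrays and 2 were bright enough to be tested, Alas2 and Hbb, with a median of 0.87. Their summed intensity ran from 38320 to 97030 on the high clozapine arrays and from 32700 to 48920 on the vehicle arrays. The rest of haem synthesis did not share these differences: in a list added after values were known, 12 genes were tested and 8 were higher with a median of 0.045, and those other than Alas2 and Hbb ran from -0.11 for Cpox to 0.17 for Ppox. Alas1, the form of the enzyme made in all cells, was at 0.04. Endothelial and mural markers, 17 tested, were higher in 11 with a median of 0.075. Of these, 0 had an unadjusted p under 0.05 (limma), against 1.77% of all genes higher and 1.95% lower. Vwf, the von Willebrand factor of vessel walls, was at 0.36 ± 0.22, while Cldn5, the claudin of brain endothelium, was at 0.07 ± 0.09. The other 6 members were lower, and the list ran from -0.26 for the transporter gene Abcb1a to 0.37. On high clozapine replicate 7, where Alas2 and Hbb lay within the vehicle range, Ccn2 was at 12.38, above every vehicle array. The part of blood in the red cell values was not tested.

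**Figure D3:**
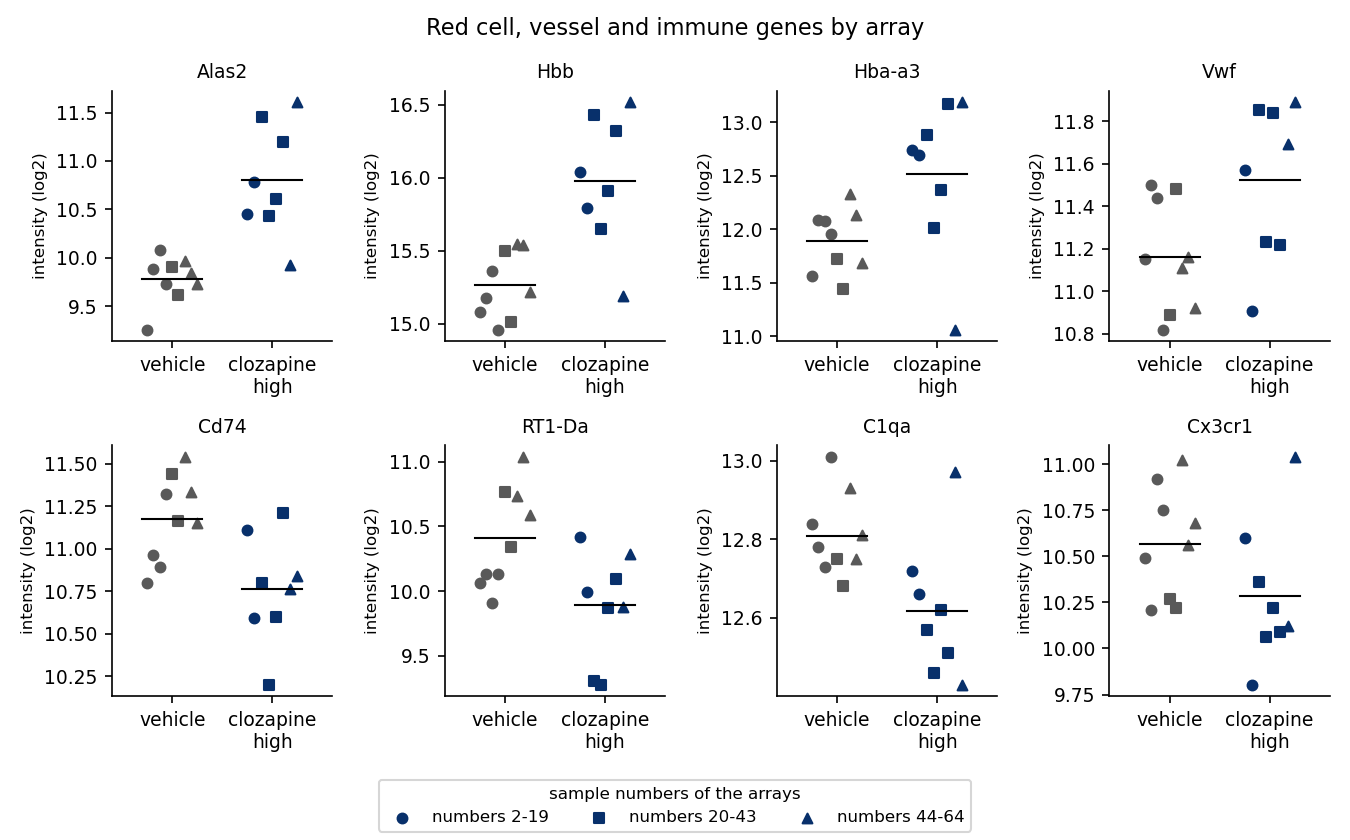
Log2 intensity of 8 genes on each vehicle and high clozapine array, with symbols for the 3 segments of sample numbers and a line at each group's mean. Alas2 and Hbb are higher on 7 of 8 high clozapine arrays than on any vehicle array, whereas Cd74, RT1-Da, C1qa and Cx3cr1 lie lower on average with overlapping groups.

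Genes of antigen presentation and of microglia were lower in part, none past the adjusted threshold. Cd74, the invariant chain that accompanies class II molecules, was at 10.20, 10.78 and 11.21 (lowest, median and highest) with high clozapine and 10.80, 11.16 and 11.54 with vehicle. The groups overlapped, and 7 of 8 high clozapine arrays lay below the vehicle mean. The difference was -0.41 ± 0.13 (SE; limma, adjusted p = 0.987; exact permutation p = 0.00946), and -0.46 ± 0.13 against medium clozapine (limma, unadjusted p = 0.00049, adjusted p = 1). RT1-Da, a class II alpha chain, was at 9.28, 9.94 and 10.42 against 9.91, 10.34 and 11.04. Its difference was -0.52 ± 0.17 (exact permutation p = 0.0174), but 0.15, -0.93 and -0.70 within the 3 segments. RT1-DMa, which loads peptides onto class II molecules, was at 0.16 ± 0.08. In a list of 4 tested class II genes added after values were known 2 were lower, and the median of -0.16 turned to 0.09 when only the brightest 40% of probe sets were kept.

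Of 16 microglia and immune markers tested 10 were lower, with a median of -0.045. The 3 at an unadjusted p under 0.05 in limma were RT1-Da, Cd74 and C1qa, against 1.95% of all genes in that direction and none in the other. C1qa, a chain of the complement protein that tags synapses and debris, was at 12.62 ± 0.17 (SD, n = 8) against 12.81 ± 0.10 (SD, n = 9), a difference of -0.19 ± 0.07 seen on 7 of 8 arrays. Its partner chains C1qb (0.04) and C1qc (-0.11) lay within about 1 SE of 0. Cx3cr1, the fractalkine receptor of microglia, was at -0.28 ± 0.16, and Csf1r, the receptor that maintains them, at 0.12 ± 0.09. Summed intensity of the microglia markers ran from 91850 to 110800 with high clozapine and from 98560 to 107900 with vehicle. In 11 complement and phagocyte genes, a list added after values were known, 8 were lower with a median of -0.10.

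Interferon-induced genes, also a list added after values were known, were lower in 9 of 11 with a median of -0.10. Their 2 members at an unadjusted p under 0.05 in limma went opposite ways, where all genes gave 1.77% higher and 1.95% lower. Rsad2, the antiviral protein viperin, was at 9.23, 9.49 and 10.52 with high clozapine and 8.69, 9.06 and 9.41 with vehicle. All 8 high clozapine arrays lay above the vehicle mean and 6 above every vehicle array, and replicate 8 stood highest. The difference was 0.60 ± 0.19 (SE; limma, adjusted p = 0.987; exact permutation p = 0.00029). Mx2, an antiviral GTPase, was at -0.83 ± 0.41 with SDs above 1 in both groups (exact permutation p = 0.142).

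Activity-regulated genes other than Ccn2 did not pass the threshold between high clozapine and vehicle. Fos, a transcription factor that neurons make within minutes of activity, was at 8.86, 10.53 and 11.22 with high clozapine and 8.47, 10.07 and 11.93 with vehicle. The groups overlapped across nearly their whole range, and the difference of 0.48 ± 0.40 (SE) was about as large as its error (exact permutation p = 0.323). Arc, a synaptic regulator of AMPA receptor uptake, was at 10.45, 11.55 and 12.14 against 10.28, 10.77 and 11.85, a difference of 0.55 ± 0.28 (exact permutation p = 0.0548). Of 18 tested immediate early transcription factors 10 were higher, with a median of 0.043. At an unadjusted p under 0.05 in limma 0 were higher and 2 lower, the AP-1 members Jund (-0.21 ± 0.10) and Jun (-0.13 ± 0.07), against 1.77% and 1.95% of all genes. Egr1 was at 0.15 ± 0.18, Junb at 0.10 ± 0.20 and Nr4a1 at 0.25 ± 0.22.

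Effector genes that activity induces, 20 tested, were higher in 15 with a median of 0.027. The 2 at an unadjusted p under 0.05 (limma), both higher, were Ccn2 and Bdnf, against 1.77% of all genes. Bdnf, the brain-derived neurotrophic factor, was at 11.55 ± 0.29 (SD, n = 8) against 11.28 ± 0.32 (SD, n = 9), a difference of 0.28 ± 0.13 (limma, unadjusted p = 0.0330; exact permutation p = 0.0822). The scaffold gene Homer1 has 5 probe sets. One, 1370454_at, was at 12.88 ± 0.45 (SD, n = 8) against 12.37 ± 0.26 (SD, n = 9), a difference of 0.51 ± 0.16 on 7 of 8 arrays (exact permutation p = 0.0115). Within the 3 segments it was 1.03, 0.61 and 0.01. Another, 1370997_at, was at 0.35 ± 0.21, and the other 3 were between -0.004 and 0.009.

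The high and medium clozapine levels differed in these genes by values that a direct contrast gives without the vehicle arrays. Fos at medium clozapine ran from 11.11 to 12.63, and at the high level replicate 3, at 11.22, was the only array within that range. High minus medium was -1.54 ± 0.40 (SE; limma, unadjusted p = 0.00028, adjusted p = 1), and -1.53 with segments as a block. Egr2, a zinc finger transcription factor, ran from 10.28 to 11.67 at the medium level and from 9.14 to 10.21 at the high level, without overlap. Its difference was -1.31 ± 0.36 (limma, unadjusted p = 0.0005, adjusted p = 1), and -1.29 with the block. Arc was at 12.37 ± 0.81 (SD, n = 9) at the medium level, and high minus medium was -0.92 ± 0.28 (limma, unadjusted p = 0.00196, adjusted p = 1), or -0.93 with the block.

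Across the 18 immediate early transcription factors 17 were lower at the high than at the medium level, with a median of -0.30 against -0.0027 over all genes. At an unadjusted p under 0.05 in limma 9 were lower and 0 higher, where all genes gave 1.29% and 1.06%. Besides Fos and Egr2 they were Junb (-0.58), Nr4a1 (-0.52), Klf10 (-0.48), Nr4a3 (-0.47), Egr1 (-0.46), Ier5 (-0.36) and Nab2 (-0.27). Of 12 genes that feed back on MAP kinases 10 were lower and 4 had an unadjusted p under 0.05: the phosphatases Dusp5 (-0.46), Dusp1 (-0.38) and Dusp6 (-0.26), and the Ras inhibitor Spry4 (-0.30). None of these differences passed the adjusted threshold, and the comparison of the 2 levels called 0 probe sets in limma, with 430 (2.31%) at an unadjusted p under 0.05. Against vehicle, the medium level stood 2.02 ± 0.39 higher for Fos (limma, adjusted p = 0.0114) and 1.46 ± 0.27 higher for Arc (adjusted p = 0.0100). Those values and the ones at the high level share the vehicle arrays.

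**Figure D4:**
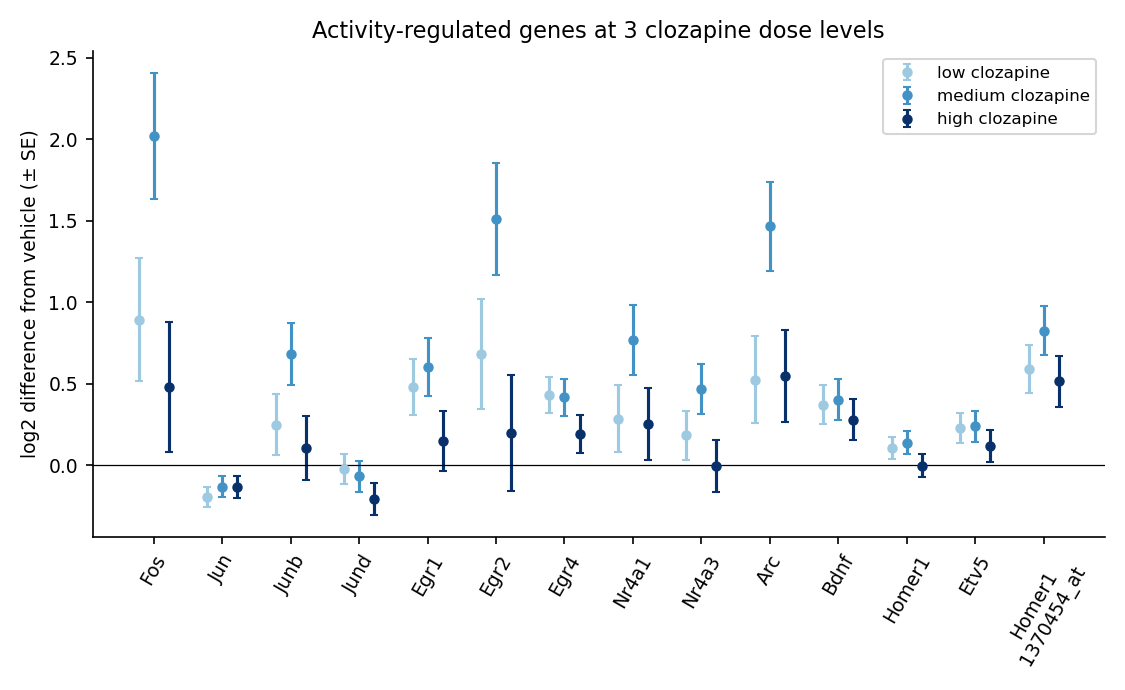
Log2 difference from vehicle with its SE at low, medium and high clozapine for activity-regulated genes, all against the same 9 vehicle arrays. Fos, Egr2 and Arc reach 2.02, 1.51 and 1.46 at the medium level and 0.48, 0.20 and 0.55 at the high level.

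Transcripts of the receptors that clozapine binds did not pass the threshold. Of 5 serotonin receptor genes bright enough to be tested 4 were lower, with a median of -0.14. Htr1a was at 9.90 ± 0.33 (SD, n = 8) against 10.13 ± 0.29 (SD, n = 9), a difference of -0.23 ± 0.14, and Htr2a, the main serotonin target of clozapine in cortex, was at -0.14. Htr7 was at -0.19, Htr5a at -0.14 and Htr2c at 0.04. Of 10 genes of dopamine signalling 5 were higher, with a median of -0.0042. Drd1 was at 10.32 ± 0.29 against 10.25 ± 0.21, and Drd2 at 9.06 ± 0.15 against 9.05 ± 0.22. Adrenergic receptors were higher in 4 of 5 (median 0.065) and muscarinic and histamine receptors in 1 of 5 (median -0.015), with 0 at an unadjusted p under 0.05 in these 4 groups (limma). Subunits of glutamate and GABA-A receptors gave 1 gene at an unadjusted p under 0.05 of 21 tested, the AMPA subunit Gria4 (-0.23 ± 0.11). Over all genes 1.77% were higher and 1.95% lower at that threshold, and counts from so few genes cannot be told from these shares.

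Lipid synthesis, a process that antipsychotics raise in cultured cells, was not called higher here. Of 22 genes of sterol synthesis and uptake 15 were lower, with a median of -0.026. Dhcr7, the last enzyme of cholesterol synthesis, was at 11.57 ± 0.23 (SD, n = 8) against 11.79 ± 0.12 (SD, n = 9), a difference of -0.22 ± 0.08 (limma, unadjusted p = 0.00825; exact permutation p = 0.0272). Tm7sf2, a sterol reductase, was at -0.18 ± 0.09, and Srebf1, the transcription factor of lipid synthesis, at 0.19 ± 0.08. These were the 3 members at an unadjusted p under 0.05 (limma), 1 higher and 2 lower, against 1.77% and 1.95% of all genes. Of 13 genes of fatty acid synthesis 10 were lower with a median of -0.065. Fads1, a desaturase of polyunsaturated fatty acids, was at 13.17, 13.45 and 13.59 with high clozapine and 13.42, 13.60 and 13.78 with vehicle. The groups overlapped, and the difference was -0.17 ± 0.06 (limma, unadjusted p = 0.00334, adjusted p = 0.987). Fasn, fatty acid synthase, was at -0.11 ± 0.07.

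Markers of neuron and glia classes lay near the median of all genes. GABAergic interneuron markers were higher in 8 of 16 (median 0.00064) and ran from -0.09 to 0.19. Among the lower ones were Sst at -0.05, Pvalb at -0.06 and Gad1 at -0.04. Cortical layer markers were higher in 15 of 18 (median 0.059), with 0 at an unadjusted p under 0.05 (limma), where all genes gave 1.77% higher and 1.95% lower. Presynaptic genes were higher in 12 of 21 and postsynaptic density genes in 14 of 21. Oligodendrocyte markers were higher in 12 of 20 (median 0.018), with Mbp, myelin basic protein, at 0.002 ± 0.051. Astrocyte markers were lower in 10 of 16 (median -0.025). Meningeal and choroid plexus markers were lower in 12 of 14 (median -0.061), led by the growth factor Igf2 at -0.28 ± 0.15. Their summed intensity ran from 89930 to 135000 with high clozapine and from 99160 to 143300 with vehicle. Striatal neuron markers, which dissection can carry in, were higher in 7 of 14 (median -0.0042).

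**Figure D5:**
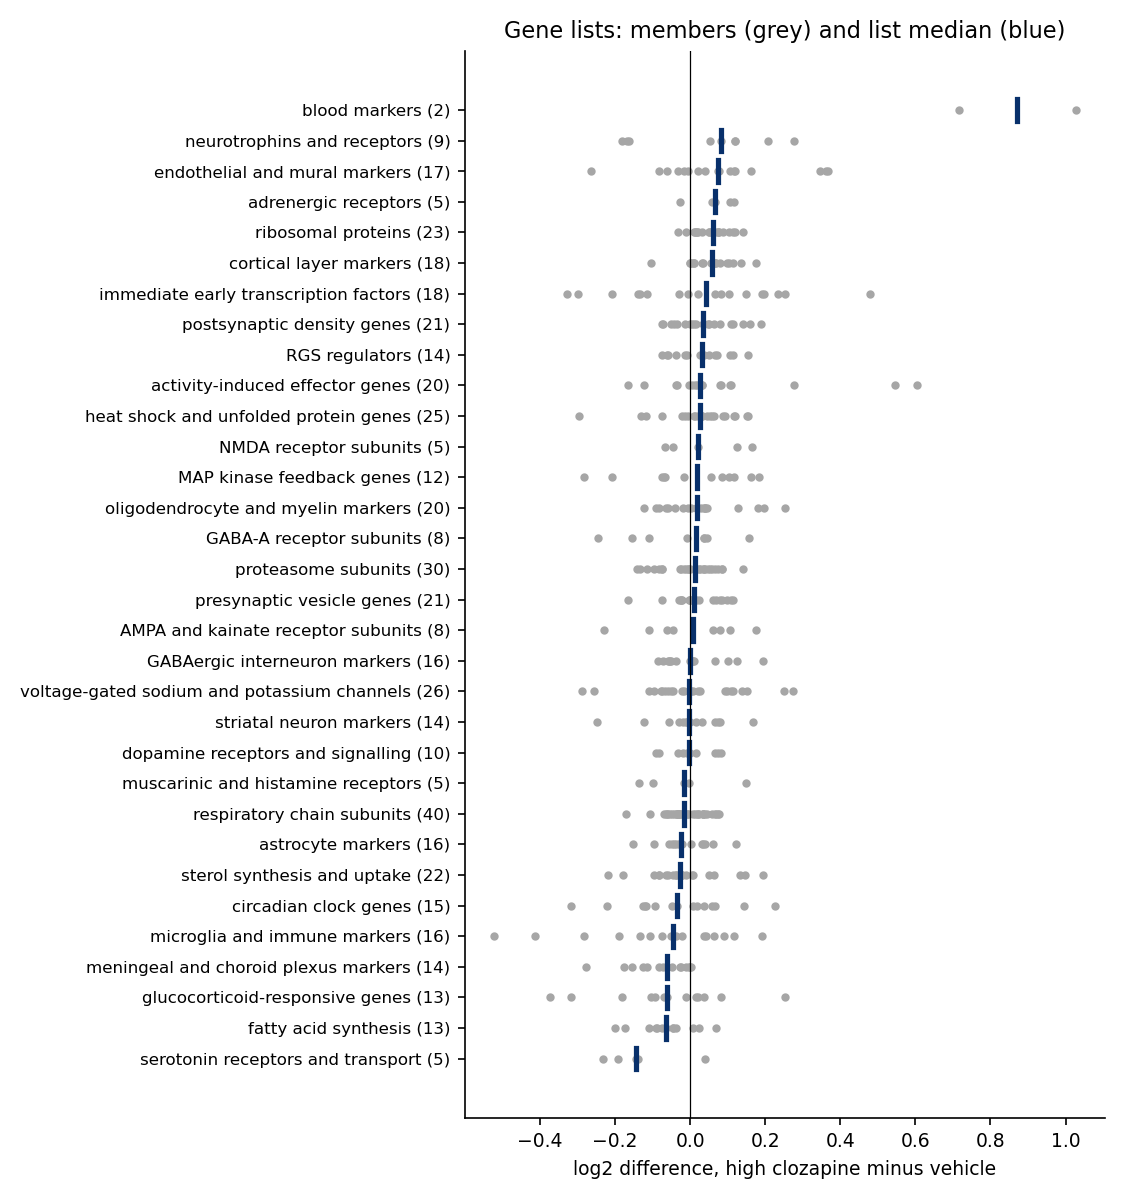
Log2 difference, high clozapine minus vehicle, of every tested member (grey) and the median (blue) of each gene list, without the lists added after values were known. The plotted medians lie within 0.15 of 0 except for the 2 blood markers, whose median is 0.87.

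Among stress, clock and housekeeping genes the list medians were small. Ribosomal protein genes were higher in 21 of 23 with a median of 0.061. None had an unadjusted p under 0.05 (limma), where all genes gave 1.77% higher and 1.95% lower. Respiratory chain subunits were lower in 25 of 40 (median -0.017) and proteasome subunits higher in 16 of 30 (median 0.012). Heat shock and unfolded protein genes were higher in 18 of 25 (median 0.027), although Dnajb9, a chaperone of the endoplasmic reticulum, was at -0.30 ± 0.13. Of 15 clock genes 8 were lower (median -0.034), and Bmal1, the core activator of the clock, was at 0.23 ± 0.08. Per1 had the largest difference of the list, -0.32, but no clock gene was lower at an unadjusted p under 0.05 (limma). Glucocorticoid-responsive genes were lower in 8 of 13 (median -0.061), with the cell cycle inhibitor Cdkn1a at -0.37 ± 0.16 on 8 of 8 arrays and Nfkbia, the inhibitor of NF-kappaB, at 0.25 ± 0.12. Fkbp5, a standard reporter of glucocorticoid action, was at 0.04 ± 0.11.

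Several single genes came next to Ccn2 in the order of p, none of them past the adjusted threshold in the main fit of all 63 arrays. Tnks2, a poly-ADP-ribosyltransferase, had the second smallest p through its probe set 1395047_at. It was at 9.11, 9.52 and 9.78 with high clozapine and 8.57, 9.06 and 9.19 with vehicle, with 7 of 8 arrays above every vehicle array. The difference was 0.46 ± 0.10 (SE; limma, adjusted p = 0.148; exact permutation p = 0.00045), and 0.16, 0.37 and 0.82 within the 3 segments. This probe set was called with array weights (limma, adjusted p = 0.0398) and without high clozapine replicate 2 (limma, adjusted p = 0.0289). The other 3 probe sets of Tnks2 were at -0.04, -0.01 and 0.008. The same held for Acot7, an acyl-CoA thioesterase, at 0.57 ± 0.15 on 1388075_at and 0.001 on its brightest probe set. Tspan33, a tetraspanin, was at -0.45 ± 0.12 on 1395610_at and -0.08 on its brightest.

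Among the other genes that were higher, Lsm11, a subunit of the snRNP that processes histone messages, was at 0.22 ± 0.06, and Zmpste24, the protease that matures lamin A, at 0.25 ± 0.07. Grb14, an adaptor that inhibits the insulin receptor, was at 0.25 ± 0.08 on 8 of 8 arrays. Mas1, a receptor for an angiotensin peptide, was at 10.42 ± 0.47 (SD, n = 8) against 9.95 ± 0.22 (SD, n = 9). Kif7 ran from 9.17 to 9.35 with high clozapine and from 7.68 to 9.16 with vehicle, a difference of 0.50 ± 0.15 (exact permutation p = 0.00325). Its groups were thus separated by little more than 0.01 between the lowest high clozapine and the highest vehicle array. Splicing factors, a list added after values were known, were higher in 16 of 27 with a median of 0.028. At an unadjusted p under 0.05 in limma 3 were higher, Srsf1 (0.18 ± 0.06), Snrnp70 (0.17 ± 0.07) and Snrpd3 (0.14 ± 0.06), and 1 was lower, Snrpa (-0.36 ± 0.11), against 1.77% and 1.95% of all genes. Snrpa, a protein of the U1 snRNP, had the largest difference of the list, with replicate 2 far below the other high clozapine arrays.

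Among the genes that were lower, Nefm, the medium neurofilament subunit, was at 13.77, 13.96 and 14.21 with high clozapine and 14.04, 14.17 and 14.46 with vehicle. The difference was -0.25 ± 0.08 on 8 of 8 arrays (limma, adjusted p = 0.987; exact permutation p = 0.00716), with overlapping groups. The other neurofilament subunits Nefh (-0.11) and Nefl (-0.09) lay within about 1 SE of 0, and 11 of 16 genes of the axon cytoskeleton, a list added after values were known, were lower with a median of -0.040. Chpt1, which makes phosphatidylcholine, was at -0.43 ± 0.14, Zfp652, a zinc finger protein, at -0.54 ± 0.15, and Slc5a6, the transporter of biotin and pantothenate, at -0.24 ± 0.08. Scn4b, a beta subunit of sodium channels, was at -0.26 ± 0.11. The probe set 1376975_at, which the annotation pairs with no gene, was at -0.53 ± 0.13 on 8 of 8 arrays (limma, adjusted p = 0.774).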

How the data were processed

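The deposited values are linear intensities, 1 per probe set and array, without detection calls, made with software not given in the sources used here. Scaling by the authors shows in the values, since their trimmed means (2% off each end) fell between 2500.6 and 2500.8 on the 105 arrays of the series. Quantile normalisation of the 63 neuroleptic arrays was followed by a floor of 32 and log2. On the 17 arrays compared, 5.06% to 7.56% of an array's deposited intensities lay below the floor. Of 31099 probe sets 57 controls were left out, and the 60% with the highest mean, 18625, were tested with limma 3.58.1 in R 4.3.3 (1 mean per group, no covariate, lmFit and eBayes, Benjamini-Hochberg). Single values were also compared by two-sided exact permutation of the 17 arrays, not adjusted over the 211 probe sets so compared. Many of these were picked from the 18625 by a small limma p in this same comparison. For them a small permutation p was to be foreseen and is no separate support. The fit was tested on simulated data. Plots were made in matplotlib 3.10.9.

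The platform's annotation named the genes: of 31042 probe sets 20826 had 1 symbol, 436 several and 9780 none, and 20758 matched a RefSeq gene of GRCr8. Genes were named by smallest p (12 in each direction), by list (up to 4 each), from an a priori list, and as the 3 other probe sets with the smallest p that do not represent their gene. Members named beyond this, to show the rest of a list, were chosen after their values were seen. The members and the 33 lists were chosen with earlier results of these data known, and 10 lists were added later. Of the 17 arrays 0 pairs held identical values (highest correlation 0.986). Alternatives were the scaling, floor, filter, array order, weights, variance model and leaving out arrays.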

Additional observations from a re-analysis of the deposited data

Results flagged for a closer look

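An array far from the others of its group was looked for in 172 group values of named probe sets, and 11 were found. The nominal rate of the rule is about 1 in 20 groups. The probe sets had an unadjusted p under 0.05 in this comparison or were on the a priori list, and they share arrays. That rate need not hold for them. In vehicle, replicate 2 was highest for Ccn2, at 12.11 with the next array at 11.85, and lowest for Sst, at 13.37 with the next at 13.64. Vehicle replicate 1 was highest for Fdft1, a sterol synthesis enzyme, at 13.25 (next 13.09), and for Lsm11, at 11.72 (next 11.48). Vehicle replicate 4 was lowest for Grb14 at 10.27 (next 10.68), and replicate 3 for Srsf1 at 12.90 (next 13.26).

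With high clozapine, replicate 6 was lowest for both Egr1, at 13.64 (next 14.19), and Fos, at 8.86 (next 10.12). Replicate 8 was highest for Rsad2 at 10.52 (next 9.70). Replicate 2 was lowest for Snrpa at 9.25 (next 9.95) and highest for the Homer1 probe set 1370656_a_at at 13.82 (next 13.21).

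Ccn2 differed between the high levels of the 2 drugs by a direct contrast, 0.55 higher with clozapine (limma, adjusted p = 0.0332); the report gives the settings that end this call.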

How the results depend on the processing

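Ccn2 was called against vehicle under every alternative run, with differences from 0.56 to 0.65 and adjusted p from 0.00189 to 0.0414 (limma). The count against vehicle was 2 with array weights, adding Tnks2 (0.49, adjusted p = 0.0398), and 5 without clozapine low arrays 9 and 10. It ran from 1 to 2 when each array was left out, with 1374015_at added without high clozapine replicate 1 (-0.50, adjusted p = 0.0107) and Tnks2 without replicate 2 (0.51, adjusted p = 0.0289). At an unadjusted p under 0.05 the count was 724, 457 with 40% of probe sets kept, 1370 with no filter and 1235 with array weights. Against low clozapine the count of 0 became 4 with 40% kept and 5 with the 4 runs of sample numbers as a block, Ccn2 among them in both. It ran from 0 to 5 when each array was left out, with 5 without high clozapine replicate 7, where Ccn2 was not called. The other probe sets called under these settings were of red cell genes. Against medium clozapine the count was 1 with no filter. Against high haloperidol the count of 1 became 0 with no filter, with 4 runs, sample number or 3 segments in the fit, and 7 (5 higher, 2 lower) without clozapine low arrays 9 and 10. It ran from 0 to 318 when each array was left out: 318 without high clozapine replicate 2 (122 higher, 196 lower), 0 without replicate 5, 7 or 8, and 4 without vehicle replicate 9. Of 43 list medians 20 changed sign under at least 1 alternative, in 104 of 1247 values. Those of immediate early factors (-0.030), YAP and TEAD targets (-0.0064) and oligodendrocyte markers (-0.030) did so without high clozapine replicate 1, that of TGF-beta signalling without vehicle replicate 4 (-0.013), and that of MHC class II genes with 40% kept (0.0904). The cause of these shifts was not tested. Of the named probe sets 86 were followed, those with an unadjusted limma p under 0.05 against vehicle or on the a priori list. Of their values 2380 of 2387 kept their side of the threshold. There were 65 sign changes in 11 of these probe sets, none with an unadjusted p under 0.05. All but Ccn2 began above the adjusted threshold, and most were chosen by p in these data, so these counts are no measure of stability. No paired analysis was possible because replicate numbers follow sample order and pair nothing; array order was fitted instead, and high clozapine minus vehicle for Ccn2 was 0.59 with 4 runs as a block (limma, adjusted p = 0.00406).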
